A study of Rattus norvegicus with 24 samples.

Results

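The genes described here are 10 rat genes known to rise in the prostate when androgen is withdrawn: Clu, Plau, Mgp, Mmp2, Mmp7, Ctsb, Ctsd, Bax, Thbs1 and Lgals1. They were chosen by name as prostate regression genes, with the TGF-beta, IGF and glutathione transferase genes kept apart, and all 10 of 10 were found among the 8939 genes with a symbol on the array, each with exactly 1 probe. RNA came from prostate, skin and forebrain of castrated male and from ovary of intact female Sprague-Dawley rats, all 12 weeks old. The males had been castrated 3 days before dosing, so vehicle and DHT groups alike were short of testicular androgen, whereas the females kept their gonads. DHT animals received 1 intraperitoneal dose of 10 mg/kg dihydrotestosterone, the potent androgen made from testosterone, vehicle animals received vehicle by the same route, and tissue was taken 16 h later. Each of the 8 groups had 3 arrays, of which forebrain vehicle array 3 was left out because its label says that it failed quality control. The design text speaks of castrated males for all 4 tissues, and the sample labels, which name intact females for ovary, were followed. In bulk tissue, a gene may be lower because fewer cells of a type are present or because each cell holds less RNA, and the arrays cannot tell these apart.

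After castration the androgen-dependent epithelium of the rodent prostate dies by apoptosis and the gland is remodelled. Clusterin, the secreted chaperone encoded by Clu, is known from this tissue as the testosterone-repressed prostate message, and proteases that clear matrix and dying cells accumulate over the same period. Androgen given back stops the loss and starts regrowth of the epithelium, so the design asks of each of these genes whether DHT had lowered it at this time. No prostate of intact males was among the samples, so whether a gene had risen after castration was not measured.

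Promoter sequences are shown for Plau and Mmp7, the 2 members with the lowest p-values for a lower level in DHT-treated prostate. They are RefSeq sequences of the GRCr8 assembly, each 300 bases long from 250 bases before the start site to 50 after it, and 4 of the 10 members had one (Plau, Mmp7, Ctsd and Thbs1). The Plau promoter lies at chr15:3511938-3512237 on the minus strand, and capitals mark GC boxes (GGGCGG on either strand).
Plau: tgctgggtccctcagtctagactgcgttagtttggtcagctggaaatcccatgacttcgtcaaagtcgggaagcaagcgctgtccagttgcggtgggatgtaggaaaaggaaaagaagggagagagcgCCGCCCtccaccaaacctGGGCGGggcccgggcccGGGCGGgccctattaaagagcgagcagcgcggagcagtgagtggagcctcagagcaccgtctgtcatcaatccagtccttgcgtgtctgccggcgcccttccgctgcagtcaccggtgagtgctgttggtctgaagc
The Mmp7 promoter lies at chr8:13132793-13133092 on the plus strand, and capitals mark the AP-1 motif, which was searched with the letters TGANTCA. They also mark the TATA box, whose searched letters were TATAAA on the strand of the gene. The remaining capitals mark a hexamer of the androgen response element, searched as TGTTCT on either strand.
Mmp7: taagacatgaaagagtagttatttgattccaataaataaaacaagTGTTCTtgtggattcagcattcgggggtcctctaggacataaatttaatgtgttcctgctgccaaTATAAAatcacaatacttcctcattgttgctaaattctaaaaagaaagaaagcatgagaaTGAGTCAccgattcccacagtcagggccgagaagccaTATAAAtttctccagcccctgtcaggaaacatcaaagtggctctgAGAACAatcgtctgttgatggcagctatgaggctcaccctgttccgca
Plau held GC boxes beginning at -122, -104 and -87 bases from the start site and none of the other 3 motifs. Mmp7 held the AP-1 motif at -80, TATA boxes at -140 and -43, and androgen hexamers at -205 and 2. All motifs were searched on both strands except the TATA box, which was searched on the gene's strand. Of 33469 rat promoters of the same length, 33.1% held a GC box, 7.33% the AP-1 motif, 8.8% a TATA box and 20.7% the androgen hexamer, so these matches are a description of the letters and not of binding.

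Levels below are the log2 signal of a gene's probe minus the 75th percentile of its array, so that 0 is the brightness of that percentile. They compare samples for 1 gene and not genes with each other. Of the 41012 probes, 54.6% to 97.0% were well above background on the 23 arrays used, and no spot was saturated. Tissue markers followed the labels: on vehicle arrays, neuron and glia genes averaged 3.22 in forebrain against -5.52 in prostate, keratinocyte genes 6.05 in skin, and ovary genes 2.10 in ovary against -5.60 in prostate. Ovary vehicle arrays 1 and 3 had narrow signal ranges (interquartile 3.79 and 3.21 log2 units, against 6.15 on vehicle array 2). Prostate vehicle array 3 had 1531 spots flagged as outliers, against 2 to 273 on the other prostate arrays. Its interquartile range was 5.23, against 6.80 and 6.71 on prostate vehicle arrays 1 and 2. Without it 2746 prostate genes had an adjusted p under 0.05 in limma, against 2288 with it. Skin vehicle array 1 had skeletal muscle genes at -2.15, where the other 5 skin arrays had them between 8.91 and 11.3. Probasin (Pbsn), a textbook androgen-driven secretory gene of the prostate, rose 57.7-fold with DHT in prostate (log2 fold change 5.85, adjusted p = 0.00325). With normexp and quantile normalization its log2 fold change was 4.49, and with the replicate number as a block its adjusted p was 0.0516.

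Among the regression genes in prostate, Plau was lower with DHT and no other member passed the test. Plau encodes urokinase, the secreted protease that turns plasminogen into plasmin. Its level was 3.25, 2.53 and 2.41 on the 3 vehicle arrays and 0.78, 1.23 and 1.52 on the 3 DHT arrays. All DHT arrays lay below all vehicle arrays, by more than the spread within either group. Plau fell from 2.73 ± 0.45 (SD, n = 3) to 1.17 ± 0.37 (SD, n = 3), a 2.94-fold difference with a log2 fold change of -1.55 ± 0.29 (SE, adjusted p = 0.0264). Of the 9 members tested, 1 passed the adjusted threshold of 0.05, where 9.64% of the 23738 genes tested in prostate did (4.61% lower and 5.03% higher). With all tissues in one fit and the slide as a random block, the adjusted p of Plau was 0.00819. The call was lost without any of 4 arrays: the adjusted p was 0.0662 without vehicle array 1, 0.0702 without vehicle array 2, 0.0676 without DHT array 1 and 0.0914 without DHT array 2, with log2 fold changes between -1.30 and -1.65. It was 0.0518 with the median of the array subtracted, 0.0814 when dim probes were also tested and 0.0547 when flagged spots stayed in.

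**Figure D1:**
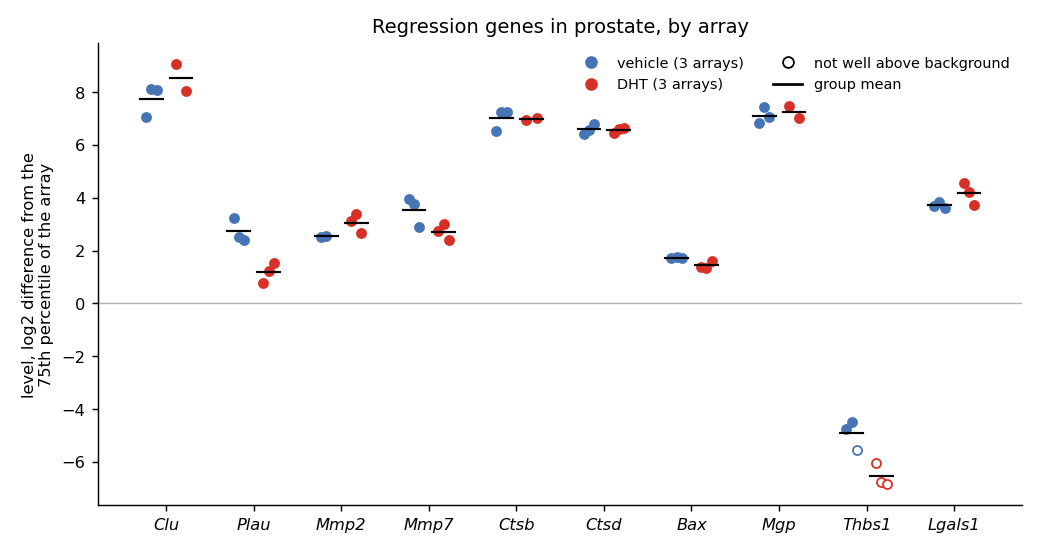
Level of each regression gene on each prostate array, as log2 difference from the 75th percentile of the array (vertical axis), for 3 vehicle (blue) and 3 DHT (red) arrays, with bars for group means and open points for probes not well above background. Plau lies between 2.41 and 3.25 on vehicle and between 0.78 and 1.52 on DHT arrays, while the 2 groups overlap for Clu, Mmp7, Ctsb, Ctsd, Mgp and Lgals1. Spots with an outlier flag (DHT array 2 for Clu, Ctsb and Mgp, vehicle array 3 for Mmp2) are not drawn.

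Urokinase acts at the cell surface with its receptor. The 2 genes of the plasminogen system list that passed the test encode that receptor and annexin A2. Of 9 genes listed, 7 were on the array and 6 tested, of which 2 fell and 0 rose, where 4.61% of all prostate genes fell and 5.03% rose. The median log2 fold change of the list was -0.82 where the median of all genes was 0.06. Anxa2, whose protein helps to assemble plasminogen and its activators on the membrane, fell 2.20-fold, from 4.79 ± 0.16 to 3.65 ± 0.22 (SD, n = 3 each, adjusted p = 0.0157). Plaur, the urokinase receptor, fell 1.88-fold, from -1.27 ± 0.27 to -2.18 ± 0.11 (SD, n = 3 each, adjusted p = 0.0317). Plat, the tissue-type plasminogen activator, had a log2 fold change of 0.24 (adjusted p = 0.545). As these lists were drawn up with earlier results of the same arrays known, their counts describe them and do not test them. Plaur passed in 8 and Anxa2 in 12 of 18 other settings of the fit, all with the same sign.

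Mmp7 encodes matrilysin, a small metalloproteinase that epithelial cells secrete. Its prostate level was 3.95, 3.75 and 2.89 on vehicle and 2.73, 3.00 and 2.41 on DHT arrays. Vehicle array 3 lay below DHT array 2, so the groups overlapped. The log2 fold change of -0.81 ± 0.32 (SE) had an unadjusted p of 0.0396 and did not pass after adjustment (adjusted p = 0.158), in a tissue where 27.6% of genes had an unadjusted p under 0.05. Without vehicle array 3 it was -1.13 with an adjusted p of 0.0316.

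Mmp2 encodes gelatinase A, which stromal cells make as a proenzyme. Its level was 2.53 and 2.55 on vehicle arrays 1 and 2, with array 3 flagged as an outlier and left out, and 3.12, 3.39 and 2.66 on DHT arrays. The DHT arrays lay above both vehicle arrays, the direction opposite to Plau and Mmp7. The log2 fold change of 0.52 ± 0.26 (SE) did not pass (adjusted p = 0.261). Among the 9 tested members the groups did not overlap for 3, Mmp2 higher and Plau and Bax lower, and over all genes 35.8% had groups that did not overlap. Of the wider list of metalloproteinases and their inhibitors, 11 of 22 were tested, with a median of 0.06: Mmp12, the elastase of macrophages, fell 3.54-fold, from 1.73 ± 0.54 to -0.09 ± 0.64 (SD, n = 3 each, adjusted p = 0.0398, passed in 10 of 18 other settings), and none rose. Among all prostate genes, 4.61% fell and 5.03% rose.

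Ctsb and Ctsd encode lysosomal cathepsins, a cysteine and an aspartic protease. Ctsb was at 6.51, 7.25 and 7.25 on vehicle arrays and at 6.95 and 7.02 on DHT arrays 1 and 3, with DHT array 2 flagged and left out. Ctsd was at 6.43, 6.57 and 6.78 on vehicle and at 6.46, 6.61 and 6.62 on DHT arrays. For both genes the DHT arrays lay inside the vehicle range. The log2 fold changes were -0.02 ± 0.28 (SE, adjusted p = 0.979) for Ctsb and -0.03 ± 0.16 (SE, adjusted p = 0.919) for Ctsd. Of 21 other lysosomal genes tested from a list of 25, 2 fell and 0 rose, with a median of -0.26. Over all prostate genes, 4.61% fell and 5.03% rose. Lgmn, the asparaginyl endopeptidase legumain, fell 1.98-fold (from 4.24 ± 0.10 to 3.25 ± 0.28, SD, n = 3 each, adjusted p = 0.0265). Ctsz, cathepsin Z, fell 1.75-fold (from 2.37 ± 0.18 to 1.57 ± 0.25, SD, n = 3 each, adjusted p = 0.049). Lgmn passed in 10 and Ctsz in 8 of 18 other settings.

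For Clu, no DHT effect passed the test in prostate and its sign depended on the scaling. On the 75th-percentile scale its level was 7.04, 8.12 and 8.10 on vehicle arrays and 9.05 and 8.04 on DHT arrays 1 and 3, with DHT array 2 flagged as an outlier. DHT array 1 was the highest and vehicle array 1 the lowest, while the remaining arrays lay close together. The log2 fold change was 0.79 ± 0.47 (SE, adjusted p = 0.334). It ranged from 0.28 without DHT array 1 to 1.29 without DHT array 3.

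The Clu probe was among the 31 brightest of the 41012 probes on every prostate array. Whether a probe this bright can still show a change in RNA was not tested. Before any scaling its log2 signal was 18.17, 18.46 and 18.24 on vehicle arrays and 17.97, 17.76 (flagged) and 18.21 on DHT arrays. On these raw values vehicle arrays 1 and 3 and DHT array 3 were nearly level, and the 2 lowest arrays were DHT arrays. The 75th percentile of the array, flagged spots included, varied more. It was 11.1, 10.3 and 10.5 on vehicle and 8.93, 10.2 and 10.2 on DHT arrays. DHT array 1 thus had the lowest percentile and the highest scaled Clu level. The percentile that is subtracted leaves flagged spots out, and on vehicle array 3, with 1531 such spots, it was lower than the value given. With quantile normalization the log2 fold change of Clu was -0.10 ± 0.25 (SE) and with normexp background correction and quantile normalization -0.06 ± 0.22, where the median of all genes was 0.05 in both. With no scaling it was -0.20 ± 0.63 (SE), but the median of all genes was then -0.72, so that Clu lay above that median. With the median in place of the 75th percentile it was 0.77 ± 0.38, with the percentile taken over probes above background on all arrays 0.75 ± 0.48, with cyclic loess 0.39 ± 0.35, and with the flagged spot kept 0.57 ± 0.46. None of these passed, with adjusted p-values from 0.274 to 0.881. Plau stayed negative under the other scalings and with flagged spots kept, between -1.46 and -1.63, and was at -2.33 with no scaling (a setting added after seeing the data), below the median of all genes there.

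**Figure D2:**
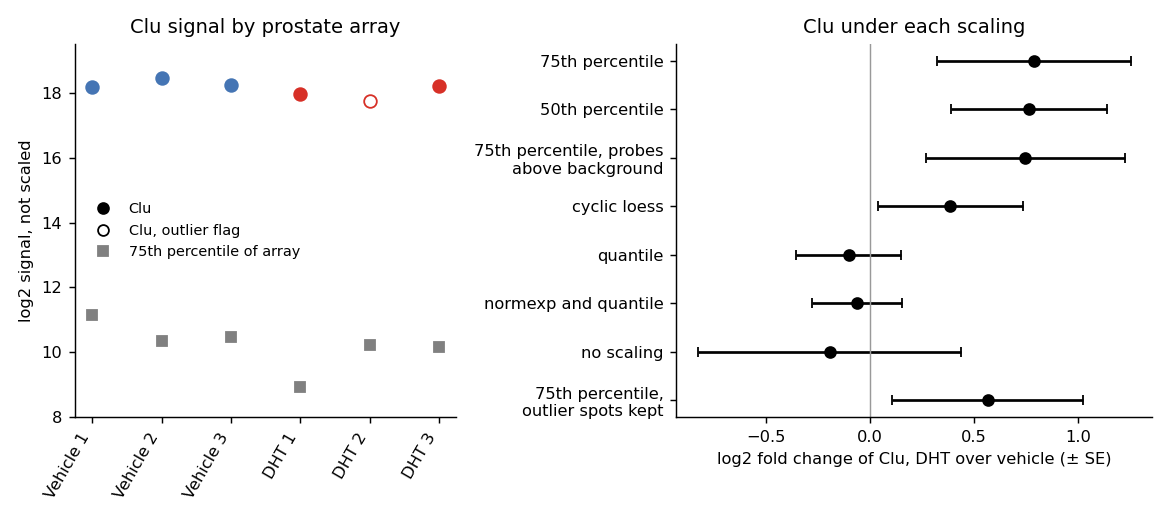
Left, log2 signal of Clu before scaling (circles, open where the spot has an outlier flag) on the 6 prostate arrays. Squares are the 75th percentile of the array, here with flagged spots included. Right, log2 fold change of Clu with DHT in prostate, ± SE, under 8 scalings. The unscaled Clu signal lies between 17.76 and 18.46 on all 6 arrays, and the fold change among the scaled fits runs from -0.10 with quantile normalization to 0.79 with the 75th percentile. It is -0.20 with no scaling, where the median of all genes is -0.72.

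Clusterin is a chaperone outside the cell and is taken up through LDL-receptor relatives. The list set beside it held heat shock proteins, LDL-receptor relatives and others, Hmox1 among them. Of 12 genes tested from this list of 16, 1 rose and 1 fell, with a median of 0.02. In prostate, 5.03% of all genes rose and 4.61% fell. Hmox1, the stress-induced haem oxygenase, fell 2.72-fold, from 1.30 ± 0.22 to -0.14 ± 0.10 (SD, n = 3 each, adjusted p = 0.00755). Hsph1, a heat shock protein of the Hsp110 family, rose 1.96-fold, from 0.20 ± 0.04 to 1.16 ± 0.41 (SD, n = 3 each, adjusted p = 0.0489). Hmox1 passed in 17 of 18 other settings and Hsph1 in 5. Lrp2, the megalin receptor that takes up clusterin, had a log2 fold change of 0.17 (adjusted p = 0.848).

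Bax encodes a pro-apoptotic protein that opens the outer mitochondrial membrane. Its prostate level was 1.70, 1.74 and 1.72 on vehicle and 1.37, 1.35 and 1.59 on DHT arrays. The vehicle arrays were nearly identical and all DHT arrays lay below them. The difference was small, with a log2 fold change of -0.28 ± 0.14 (SE), and did not pass (adjusted p = 0.255). Of 29 apoptosis genes tested from a list of 32, 4 fell and 0 rose, with a median of -0.37, where 4.61% of all prostate genes fell and 5.03% rose. The 4 stood on both sides of the pathway. Bcl2, the founding inhibitor of apoptosis, fell 3.36-fold (adjusted p = 0.0252) and Mcl1, another inhibitor, fell 1.94-fold (adjusted p = 0.014). The log2 fold change of Bcl2 was -1.75, and -0.72 with normexp and quantile normalization. Apaf1, the scaffold that activates caspase-9, fell 2.26-fold (adjusted p = 0.0237), and Bbc3, the p53 target PUMA that releases Bax, fell 1.88-fold (adjusted p = 0.0166). In the 18 other settings Mcl1 passed in 14, Bcl2 in 12, Bbc3 in 11 and Apaf1 in 8.

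**Figure D3:**
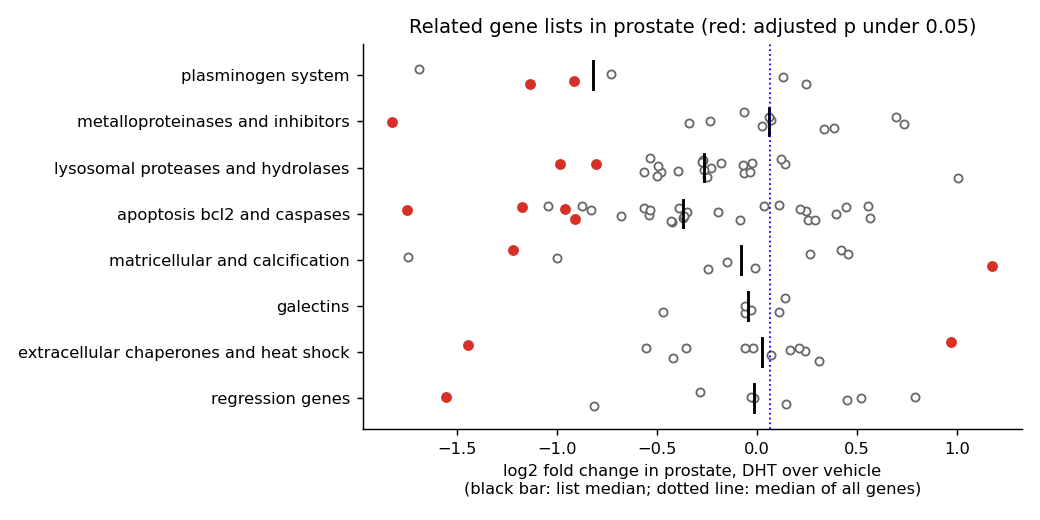
Log2 fold change with DHT in prostate (horizontal axis) for each tested gene of the lists around the regression genes, with black bars for list medians, a dotted line for the median of all genes (0.06) and red points for an adjusted p under 0.05. The plasminogen system has a median of -0.82 with 2 of 6 genes called lower, and the apoptosis list one of -0.37 with 4 of 29 called lower.

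The last 3 members act in the extracellular matrix. Mgp, a vitamin K-dependent inhibitor of calcification, was at 6.83, 7.44 and 7.05 on prostate vehicle arrays and at 7.48 and 7.02 on DHT arrays 1 and 3, with DHT array 2 flagged. The groups overlapped, and the log2 fold change was 0.14 ± 0.26 (SE, adjusted p = 0.764). With quantile normalization it was -0.43, so its sign too depended on the scaling.

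Lgals1, the galactoside-binding lectin galectin-1, was at 3.70, 3.85 and 3.62 on vehicle and at 4.57, 4.22 and 3.72 on DHT arrays. DHT array 3 lay inside the vehicle range and the other two above it. The log2 fold change was 0.45 ± 0.24 (SE, adjusted p = 0.277). Of the other galectins, 6 of 8 were tested and 0 passed with limma, including 0 at an unadjusted p under 0.05, and the median was -0.04.

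Thbs1, the matrix glycoprotein thrombospondin-1 that restrains angiogenesis, was dim in prostate. Its probe was well above background on vehicle arrays 1 and 2 (-4.74 and -4.50), and was not on vehicle array 3 (-5.54) or on any DHT array (-6.05, -6.76 and -6.84). With too few arrays above background it was not tested. Its vehicle mean was 1.22-fold above its DHT mean when the lowest signal above background stands in for the DHT arrays. That is not a strict lower limit, as dim vehicle array 3 entered at its measured value. Of 10 tested matricellular and calcification genes from a list of 18, Cd36, a thrombospondin receptor and fatty acid carrier, rose 2.26-fold (adjusted p = 0.0124) and Ccn2, connective tissue growth factor, fell 2.33-fold (adjusted p = 0.0497, passed in 7 of 18 other settings). The shares of all prostate genes were 5.03% higher and 4.61% lower. Spp1, osteopontin, had a log2 fold change of -1.74 ± 0.44 (SE) that did not pass (adjusted p = 0.0572).

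Among markers of cell types in prostate, most adipocyte markers rose and some keratins fell. Macrophage markers had a mean level between 4.74 and 4.98 on vehicle and between 4.30 and 4.69 on DHT arrays, with 7 of 8 lower and 0 past the adjusted threshold in limma (1 at an unadjusted p under 0.05). Adipocyte markers lay between -0.15 and 0.52 on vehicle and between 0.89 and 1.29 on DHT arrays, and 4 of 5 tested rose, among them Adipoq 2.70-fold (adjusted p = 0.015). Of all prostate genes, 5.03% rose and 4.61% fell. Of 8 luminal epithelial markers, Pbsn rose while Krt8 fell 1.98-fold (adjusted p = 0.0383) and Krt19 fell 2.66-fold (adjusted p = 0.0163). The call of Krt8 was lost without any 1 of the 6 arrays, and it passed in 9 and Krt19 in 14 of 18 other settings. Of the 8 luminal markers 6 were lower, with a median log2 fold change of -0.46. Their mean level, Pbsn included, lay between 3.84 and 4.34 on vehicle and between 3.94 and 4.37 on DHT arrays, which overlapped. Of 4 basal epithelial markers, with a median log2 fold change of -0.11, the keratin Krt14 passed, 2.27-fold lower (adjusted p = 0.0301, passed in 11 of 18 other settings). The mean level of those markers lay between 1.95 and 2.25 on vehicle and between 1.75 and 2.01 on DHT arrays, which overlapped. Fibroblast markers lay between 2.89 and 3.05 on vehicle and between 2.47 and 3.58 on DHT arrays, and smooth muscle markers between 3.10 and 3.93 on vehicle and between 3.51 and 4.55 on DHT arrays, so both overlapped. Endothelial markers lay between -1.05 and -0.15 on vehicle and between -0.23 and 0.26 on DHT arrays, which overlapped. Of 5 tested, 5 were higher and 0 passed the adjusted threshold in limma. The part of these markers in the levels of the regression genes was not tested.

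In ovary and skin no member passed the test, and with limma 0 genes of the whole array did. In ovary 1 of 10 members had an unadjusted p under 0.05, where 10.5% of 29400 genes did. This was Thbs1, at -2.83, -3.38 and -3.10 on vehicle and -4.19, -3.98 and -3.60 on DHT arrays. All DHT arrays lay below all vehicle arrays, the 1 member of 10 without overlap, where 13.8% of genes had none, and the log2 fold change was -0.82 ± 0.28 (SE, adjusted p = 0.475). The median of all genes in ovary was -0.23, and with quantile normalization, where that median was 0.09, Thbs1 was at 0.45. Plau in ovary was at 1.29, 1.28 and 0.37 on vehicle and 0.90, 0.79 and 0.84 on DHT arrays, and these overlapped (log2 fold change -0.14 ± 0.32, SE, adjusted p = 0.898). The other 8 members had ovary log2 fold changes from -0.09 to 0.29.

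In skin 1 of 10 members had an unadjusted p under 0.05, where 4.94% of 24122 genes did. This was Mgp, at 4.75, 5.25 and 5.11 on vehicle and 5.28, 6.52 and 6.34 on DHT arrays. All DHT arrays lay above all vehicle arrays, DHT array 1 only just. The log2 fold change was 1.01 ± 0.39 (SE, adjusted p = 0.752), and 0.87 without vehicle array 1, the array low in muscle genes. The groups also did not overlap for Plau (log2 fold change -0.40, adjusted p = 0.753) and Ctsd (0.42, adjusted p = 0.752), which made 3 of 10 members where 12.3% of genes had no overlap. Lgals1 was at 4.38, 5.70 and 5.80 on vehicle and 7.07, 6.09 and 5.62 on DHT arrays, which overlapped, and its log2 fold change of 0.97 was 0.52 without vehicle array 1. Mmp7 was barely measured in skin, well above background on 2 of 3 vehicle and 1 of 3 DHT arrays.

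In forebrain no member passed the test (limma, 2 vehicle against 3 DHT arrays), nor did any gene of the array, but 4 of the 8 members tested had an unadjusted p under 0.05, all lower with DHT, where 27.4% of 26361 genes did (14.7% lower). Mmp2 was at 0.49 and 0.58 on vehicle and at -1.12, -0.72 and -0.80 on DHT arrays, a log2 fold change of -1.41 ± 0.17 (SE, adjusted p = 0.0715). Mgp was at 3.46 and 3.47 on vehicle and at 2.46, 2.39 and 2.65 on DHT arrays, a log2 fold change of -0.96 ± 0.14 (SE, adjusted p = 0.0715). Within each group the arrays lay close together and the groups were well apart for both. Clu, which astrocytes express strongly in brain, was at 6.92 and 7.07 on vehicle and at 6.33, 6.33 and 6.14 on DHT arrays (log2 fold change -0.73 ± 0.14, SE, adjusted p = 0.0728). Lgals1 was at 2.14 and 2.85 on vehicle and at 1.72, 1.43 and 1.51 on DHT arrays (log2 fold change -0.94 ± 0.25, SE, adjusted p = 0.0975).

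All 8 forebrain members tested had a log2 fold change below 0, as 52.2% of all genes did, and for 7 of them every DHT array lay below both vehicle arrays, as for 24.2% of all genes. Plau was the exception that overlapped, and Mmp7 and Thbs1 were not well above background on any forebrain array used. With an intensity trend and robust variance in limma's eBayes, the same 4 genes passed, with adjusted p-values of 0.0132 for Clu, 0.011 for both Mgp and Mmp2 and 0.0298 for Lgals1, while 3167 genes of the array were called. Other markers differed between the same arrays. Skeletal muscle markers had a mean level between -0.38 and -0.33 on the 2 vehicle and between -4.56 and -3.02 on the 3 DHT arrays, and all 5 were lower. Macrophage markers, which microglia share, lay between 1.73 and 1.95 on vehicle and between 1.09 and 1.33 on DHT arrays, with 8 of 8 lower. Fibroblast markers lay between -0.10 and -0.07 on vehicle and between -0.76 and -0.32 on DHT arrays, with 6 of 6 lower, whereas neuron and glia markers lay between 3.13 and 3.32 on vehicle and between 2.92 and 3.43 on DHT arrays. Endothelial markers lay between 0.67 and 1.13 on vehicle and between 0.31 and 0.57 on DHT arrays, with 4 of 5 lower and 1 higher. The part of these markers in the forebrain values was not tested.

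**Figure D4:**
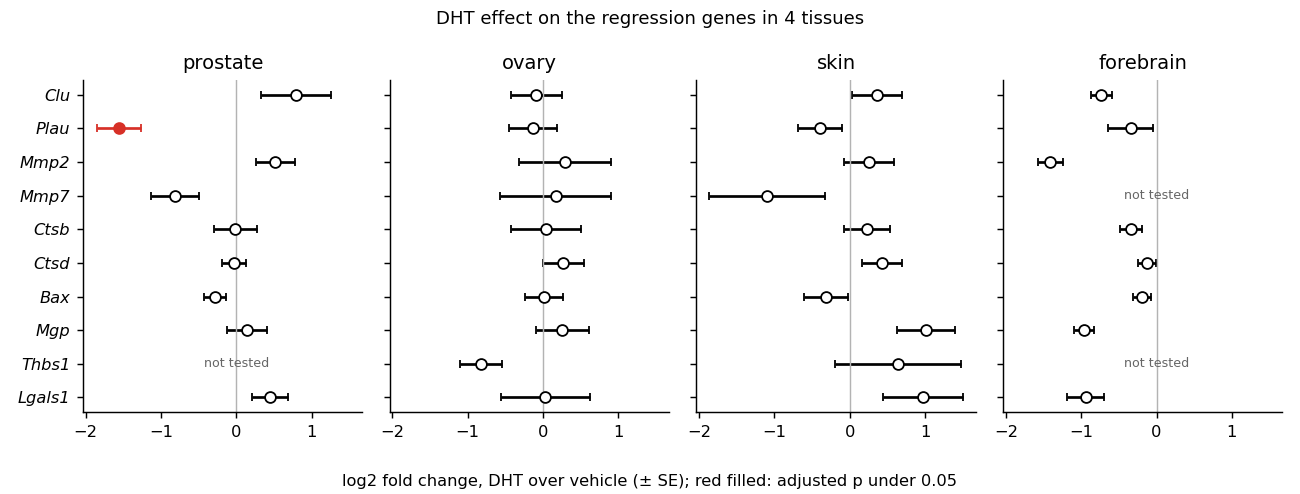
Log2 fold change with DHT, ± SE, of each regression gene in prostate, ovary, skin and forebrain, with a filled red point where the adjusted p was under 0.05. Plau in prostate, at -1.55, is the 1 filled point, and in forebrain the 8 tested genes lie between -1.41 and -0.13.

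Whether the DHT effect differed between prostate and another tissue was tested for each gene in one limma fit over all 23 arrays. No member passed in any of these contrasts, where 1.37% of 33846 genes passed against ovary, 1.66% against skin and 0.925% against forebrain. The lowest adjusted p against ovary was that of Plau, whose DHT effect was lower in prostate by -1.42 ± 0.42 (SE, log2, adjusted p = 0.109). For Plau the difference was -1.16 against skin (adjusted p = 0.213) and -1.25 against forebrain (adjusted p = 0.23). With array weights the difference passed against ovary (-1.14, adjusted p = 0.0139) and forebrain (-1.05, adjusted p = 0.0283), and without ovary vehicle array 2 it passed against ovary (adjusted p = 0.0175). By the main test the fall of Plau in prostate is not shown to differ from its effect elsewhere. Mmp2 had a difference between prostate and forebrain of 1.93 ± 0.64 (SE, adjusted p = 0.191), which passed with array weights (adjusted p = 0.00828) and with only these tissues in the fit (adjusted p = 0.00816). Clu had one of 1.57 ± 0.54 (SE, adjusted p = 0.21), which was 0.32 with quantile normalization (adjusted p = 0.87) and 1.23 with array weights (adjusted p = 0.0419).

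On vehicle arrays Plau was higher in prostate than in each other tissue. It followed the order prostate, ovary, skin, forebrain, at 2.73 ± 0.45 (SD, n = 3), 0.98 ± 0.53 (n = 3), -0.62 ± 0.18 (n = 3) and -4.43 ± 0.25 (n = 2), and no 2 neighbours overlapped. Prostate was 3.36-fold above ovary (adjusted p = 0.000204), 10.2-fold above skin (adjusted p = 1.24e-07) and 147-fold above forebrain (adjusted p = 8.05e-11). Clu was at 7.75 ± 0.62 in prostate and 7.0 ± 0.11 in forebrain, which overlapped (adjusted p = 0.135), and at 5.37 ± 0.19 in skin and 4.86 ± 0.46 in ovary, which overlapped too. The log2 difference between prostate and forebrain was 0.73. It passed at 1.35 with quantile normalization (adjusted p = 0.00328), at 0.79 with array weights (adjusted p = 0.0271) and at 1.10 without prostate vehicle array 1 (adjusted p = 0.0311). Prostate Clu was 7.43-fold above ovary (adjusted p = 6.46e-06) and 5.24-fold above skin (log2 difference 2.39, adjusted p = 2.56e-05, and 3.37 with quantile normalization).

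Mmp7 was a gene of prostate and ovary in these samples, at 3.53 ± 0.57 and 2.89 ± 0.14 (SD, n = 3 each), whose difference did not pass (adjusted p = 0.431). It was 193-fold lower in skin (adjusted p = 8.37e-08), where its probe lay well above background on all vehicle arrays except array 2. In forebrain Mmp7 was at least 588-fold lower and was not well above background. The adjusted p of 2.51e-09 against forebrain belongs to the measured log2 difference of 11.4 and not to that limit. Mgp was at 7.11 ± 0.30 in prostate and 6.97 ± 0.61 in ovary (SD, n = 3 each, adjusted p = 0.721), and was 4.2-fold lower in skin (adjusted p = 3.93e-05) and 12.3-fold lower in forebrain (adjusted p = 2.99e-07). Bax was higher in prostate than in each other tissue, by 1.5-fold over ovary (adjusted p = 0.0244, and 0.116 with quantile normalization), 1.65-fold over skin (adjusted p = 0.00512) and 2.24-fold over forebrain (adjusted p = 0.000258). The Bax call against ovary was lost without prostate vehicle array 1, 2 or 3 or ovary vehicle array 1 (adjusted p from 0.0530 to 0.118).

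Several members were higher outside prostate. Mmp2 was highest in skin, at 5.03 ± 0.35 (SD, n = 3), 5.54-fold above prostate (adjusted p = 0.000272), and prostate was 4.01-fold above forebrain (adjusted p = 0.00324). Lgals1 was lower in prostate than in ovary by 3.66-fold (adjusted p = 0.00407) and than in skin by 2.97-fold (adjusted p = 0.00943). Thbs1 was 3.54-fold lower in prostate than in ovary (adjusted p = 0.0261, and 0.565 with quantile normalization), with 2 of 3 prostate vehicle arrays well above background. That call was lost without prostate vehicle array 1 or 3 or ovary vehicle array 1 or 3 (adjusted p from 0.0558 to 0.0878). Thbs1 was 1.68-fold higher in prostate than in forebrain, where it was not well above background and the lowest signal above background stands in. Prostate vehicle array 3, dim as well, entered at its measured value, so this is not a strict lower limit. The adjusted p of 0.00362 belongs to the measured log2 difference of 2.68 and not to that fold. This adjusted p was 0.0709 without forebrain vehicle array 1. Ctsb was 1.98-fold higher in skin than in prostate (adjusted p = 0.0122), a difference that turned with quantile normalization (log2 difference of prostate over skin 0.17, adjusted p = 0.62). Ctsd passed in none of the 3 contrasts, with levels between 6.05 and 7.25 on all vehicle arrays.

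Counted over the 10 members, 5 differed between vehicle prostate and vehicle ovary (3 higher and 2 lower in prostate), where 37.6% of 33846 genes did (12.9% higher, 24.6% lower). Against skin 8 differed (5 higher, 3 lower), where 46.7% of genes did (21.9% higher, 24.8% lower), and against forebrain 6 did (all higher in prostate), where 46.9% of genes did and 24.8% were higher in prostate. Whether the members' shares differ from those of the whole array was not tested. Without prostate vehicle array 1, or without array 3, the count against ovary was 3.

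**Figure D5:**
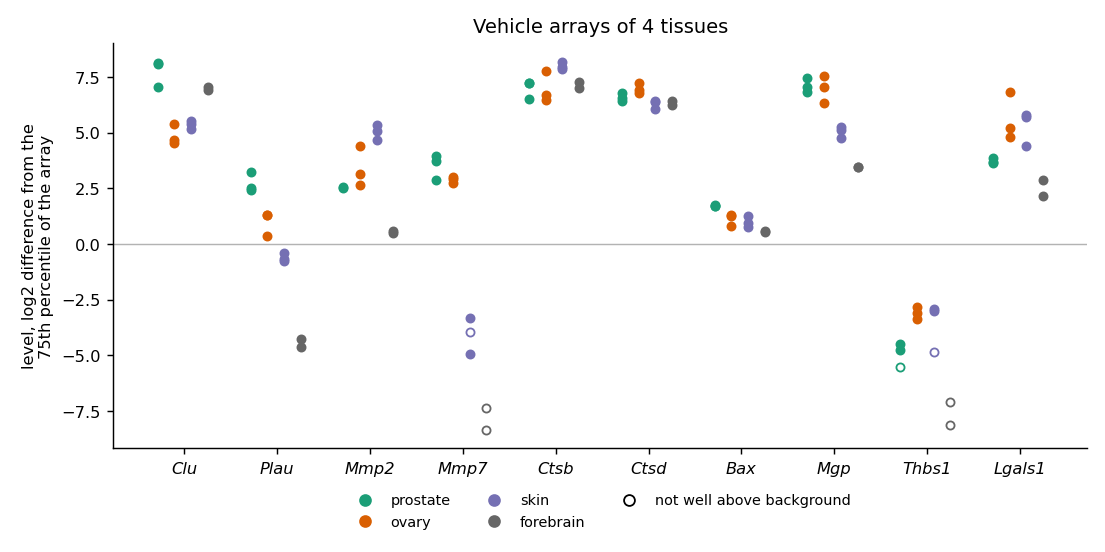
Level of each regression gene on the vehicle arrays of 4 tissues (log2 difference from the 75th percentile of the array), 1 point an array, open where not well above background. Plau falls in steps from prostate (2.41 to 3.25) over ovary and skin to forebrain (-4.61 to -4.25), and Mmp7 is high in prostate and ovary alone, while Ctsd lies between 6.05 and 7.25 in all 4 tissues.

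The genes whose log2 levels followed Plau most closely over the 23 arrays, among 8265 with a symbol, were Pctp (Pearson r = 0.977), Myc (0.971), Cybb (0.970), Casp6 (0.970) and Myh9 (0.969). For Clu, over the 22 arrays on which its spot was not flagged, they were Sec11c (0.965), Ampd3 (0.948), Stard10 (0.931), Amd1 (0.917) and Gna14 (0.898). These are descriptions over arrays that share tissue, and differences between tissues make up most of the range.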

How the data were processed

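The deposited files held spot intensities of one-colour arrays (linear scale, Cy3), made by the authors with Agilent Feature Extraction, version 10.5.1.1 per the file headers and 10.1 per the submitters' processing notes, which also name limma. The processed signal used here was background-subtracted by the scanner software, with no normalization across arrays, per the file headers. From it, log2 values minus the array's 75th percentile were computed, leaving out the 1417 control spots and the spots flagged as outliers. Probes well above background on at least 3 arrays of a fit were kept, with the brightest probe for a gene. Symbols came from matching accessions to a GRCr8 RefSeq table. Fits were made tissue by tissue in limma 3.58.1 (lmFit, eBayes, R 4.3.3), with Benjamini-Hochberg adjustment over all genes and a threshold of 0.05. Contrasts between tissues used all 23 arrays with the slide as a random block (correlation 0.0795, from 2000 genes). No slide held both treatments (3 slides for each), so slide and treatment cannot be told apart within a tissue. The design text calls replicates biological without naming separate animals, so p-values cover only the spread of these samples. The number of arrays limits precision.

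"At least" folds set each array of a dim group to its lowest signal well above background, unless the probe itself was brighter. The other group kept its measured mean. The Thbs1 folds against dim groups were made likewise. All 10 members were named whatever their test. From each related list the called genes with the largest changes were named, and for Clu and Plau the 5 genes most correlated over arrays. Plat, Spp1, Lrp2, Pbsn, Krt8, Krt19, Krt14 and Adipoq were chosen for naming with their values known. The members and lists were chosen with earlier results of these data known. Alternatives were other scalings, normexp with an offset of 50 on the median signal (a mean signal column was not used here), other filters and variance models, a replicate block and each array left out. The scripts were tested on simulated data.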

Additional observations from a re-analysis of the deposited data

How the results depend on the processing

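Plau in prostate kept its sign in all 20 alternatives run for it, its log2 fold change running from -1.72 to -1.30 with 1 array left out. The count of regression genes called in prostate, 1 by the main test, was 0 with the 50th percentile, with no filter on dim probes, with the replicate block and with flagged spots kept (an alternative chosen after seeing the data), was 2 with array weights (Plau and Mmp7), and ran from 0 to 2 with 1 array left out. Over all genes, 2288 prostate calls became 619 with no filter on dim probes, 1459 with the 50th percentile, 5168 with array weights, 3457 with trend and robust eBayes, 0 with the replicate block and 574 to 2746 with 1 array left out. Same-numbered vehicle and DHT arrays had deviations from their group means correlated between -0.43 and 0.01. With so few arrays a group, these correlations cannot decide whether the numbers pair the samples. The replicate block gave Plau an adjusted p of 0.127 at the same log2 fold change of -1.55.

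The sign of some values turned. Clu in prostate was -0.10 with quantile normalization, -0.062 with normexp and quantile normalization and -0.20 with no scaling, where the median of all prostate genes was -0.72. Mgp in prostate was -0.43, -0.43, -0.20 and -0.14 with quantile, normexp and quantile, cyclic loess and array weights, and -0.089 to 0.38 with 1 array left out. Ctsb in prostate was 0.11 with the replicate block, 0.00041 in the all-tissue fit and -0.26 to 0.11 with 1 array left out. Ctsd there was 0.034 with array weights, 0.063 with flagged spots kept and -0.11 to 0.063 with 1 array left out. In ovary, Thbs1 was 0.45 with quantile and 0.23 with normexp and quantile normalization, and Plau was 0.54 with the 50th percentile and -0.44 to 0.016 with 1 array left out. The median of all genes in ovary was 0.46 with the 50th percentile, -0.48 with no filter and -0.23 by the main test. Quantile normalization put vehicle prostate minus vehicle ovary at -0.080 for Mgp (-0.16 to 0.42 with 1 array left out) and vehicle prostate minus vehicle skin at 0.17 for Ctsb. The causes were not tested. For members whose own values are not printed in a contrast, 60 of 674 settings turned the sign, 31 of them in ovary.

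In other tissues, the count of members called was 1 in ovary with array weights (Thbs1), and in forebrain 3 with normexp and quantile normalization and 4 with trend and robust eBayes, where these called 3330 and 3167 genes of the array. In ovary 217 genes were called with the 50th percentile, 7746 with array weights and 7578 without vehicle array 2. For the difference from prostate, 2 members passed against ovary with array weights, 5 against forebrain with array weights and 3 with only the 2 tissues compared, and 0 to 1 against ovary with 1 array left out. The vehicle contrast against ovary held 3 to 5 members, against skin 7 to 9 and against forebrain 5 to 7 with 1 array left out. For these contrasts between tissues, the share of all genes that passed under the same settings is not given. Their counts are therefore no result about the members in particular. All 20 related prostate genes tested again, an addition made after seeing the data, kept their sign in 18 settings. With 3 arrays a group and dim probes bounded by background, Thbs1 on DHT prostate and all forebrain arrays and Mmp7 in forebrain allow limits only.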
